A study of Mus musculus with 12 samples.

Results

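RNA for the tubulins, and for the enzymes that fold and modify tubulin, was followed through aging of the mouse testis. Whole testes came from C57BL/6 mice, an inbred laboratory strain, that were labelled wild type (WT) and were 3, 6, 12 and 18 months old (3M, 6M, 12M and 18M), with 3 mice per age and 1 total RNA library per mouse. It is not stated in the sources used here whether mice of an age shared a litter, and the p-values below measure the spread between these 12 libraries. The members were chosen by symbol: the alpha, beta, gamma, delta and epsilon tubulins, the Ttl and Ttll ligases with Tpgs1 and Tpgs2, the Agbl and Agtpbp1 deglutamylases, Vash1, Vash2, Svbp and Atat1, and the folding cofactors Tbca to Tbce. They were 51 of 24516 gene symbols, with 228 of the 71967 transcripts in the deposited table. There were 7 alpha, 9 beta and 4 gamma, delta and epsilon tubulin genes, 16 ligase genes, 6 deglutamylase genes, 4 genes for detyrosination and acetylation, and 5 cofactor genes.

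Alpha and beta tubulin form the dimers from which microtubules are built, gamma tubulin starts new microtubules, and delta and epsilon tubulin belong to centrioles and basal bodies. The folding cofactors assemble the dimers. Tubulin is then marked by enzymes: Ttl puts back a tyrosine at the end of alpha tubulin that the vasohibins, bound to Svbp, take off, the Ttll enzymes add glutamate or glycine side chains to the tails, the deglutamylases trim glutamates, and Atat1 acetylates a lysine of alpha tubulin. In the testis, microtubules make the meiotic spindles, the manchette that shapes the spermatid head and the axoneme of the sperm tail.

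The 7 alpha tubulin genes differ at the 2 places that these enzymes read, and the mRNA of those places is shown so that each level given later can be read with the form it encodes. The first place is codon 40, counted from the start codon, which encodes the acetylated lysine in most alpha tubulins. The 30 bases around it are printed 5′ to 3′ on the coding strand (GENCODE vM21 models on mm10), with codon 40 in capitals.
Tuba3b: atgccaagcgacAAAaccattggcggcggg
Tuba3a: atgccaagcgacAAAaccattggcggcggg
Tuba1a: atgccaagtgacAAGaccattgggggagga
Tuba1b: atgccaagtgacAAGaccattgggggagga
Tuba1c: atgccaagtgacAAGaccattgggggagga
Tuba4a: atgcccagcgatAAGaccattggtggaggg
Tuba8: tttggcactcagGCCagcaagatcaacgat
Codon 40 was a lysine codon in all of them but Tuba8, where it was GCC, an alanine codon. The windows of the most abundant genes lie on chr6:145618335-145618364 (Tuba3b, plus strand), chr6:125282847-125282876 (Tuba3a, minus strand) and chr6:121220486-121220515 (Tuba8, plus strand), within coding exons. Those of the others lie on chr15:98951560-98951589 (Tuba1a), chr15:98933064-98933093 (Tuba1b) and chr1:75217303-75217332 (Tuba4a) on the minus strand and chr15:99034196-99034225 (Tuba1c) on the plus strand.

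The second place is the end of the protein. The last 60 coding bases, stop codon included, are given for 5 of the genes with the last amino acid codon in capitals.
Tuba3b: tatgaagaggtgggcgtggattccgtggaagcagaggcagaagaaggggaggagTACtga
Tuba3a: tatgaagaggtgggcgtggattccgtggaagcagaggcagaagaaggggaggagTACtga
Tuba1c: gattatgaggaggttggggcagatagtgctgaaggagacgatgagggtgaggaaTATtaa
Tuba4a: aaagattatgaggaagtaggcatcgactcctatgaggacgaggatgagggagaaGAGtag
Tuba8: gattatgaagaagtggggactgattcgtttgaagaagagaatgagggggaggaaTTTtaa
The last codon was a tyrosine codon in Tuba1c, Tuba3a and Tuba3b, a glutamate codon (GAG) in Tuba4a and a phenylalanine codon (TTT) in Tuba8. These 60 bases held 6 glutamate codons in Tuba1c, 7 in Tuba4a and 8 in Tuba3a, Tuba3b and Tuba8. The tails of Tuba3a (chr6:125278358-125278417) and Tuba3b (chr6:145621328-145621387) were the same base for base. Their whole coding sequences were 97.0% identical, and 12.1% of the stretches of 101 bases, the read length, in the Tuba3a mRNA were also in the Tuba3b mRNA, so reads from those stretches could be assigned to either gene. Shared stretches made up 26.0% of Tuba1a against Tuba1b, 34.7% of Tuba1a against Tuba1c, 48.4% of Tuba1b against Tuba1c and 35.8% of Tubb2a against Tubb2b. The levels of these pairs are therefore uncertain, by an amount that was not tested.

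Each library held 50924104 to 71803379 estimated reads, of which 0.932 to 0.978% lay on the members. Testis germ cell markers were abundant in each library: the summed FPKM (fragments scaled by transcript length and by all mapped fragments) of 5 elongating spermatid markers was 21526 to 32209, and that of 8 Sertoli cell markers was 412 to 559.6. Markers of epididymis and neurons were at or near 0, with a summed FPKM of 0.0467 to 0.218 for 4 epididymis genes and 0.0262 to 0.174 for 2 neuron genes. Markers of other tissue were not all absent. The sum was 0.462 to 0.836 for 2 skeletal muscle genes, 5.88 to 8.48 for 2 adipocyte genes and 7.57 to 63.6 for 3 red blood cell genes. The genes behind the last 2 sums differed. In counts not scaled by length (CPM), Hba-a1 and Hbb-bs were at 0 in mouse 1 of 12M and of 18M, where Alas2 stood at 17.9 and 16.7. Adipoq was at 7.52 to 11.6 CPM and Plin1 at 0.322 to 1.05. Of the marker genes, Cyp11a1 and Cyp17a1, steroid enzymes of Leydig cells, fell with age, by 0.11 and 0.097 log2 units per month (edgeR quasi-likelihood test, adjusted p = 0.00188 and 2.83e-05). Short and long RNAs were not equally represented in the libraries. Genes under 1000 bases stood 0.29 log2 units higher than genes over 4000 bases in 12M-3 (mouse 3 of 12M) and 0.19 higher in 18M-3, relative to their means over the 12 libraries, and 0.18 lower in 3M-2. In the 3 libraries of 18M this difference was 0.049 to 0.19, and in those of 3M it was -0.18 to 0.00046. RNA from fewer cells of a type and less RNA per cell cannot be told apart in whole testis.

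**Figure D1:**
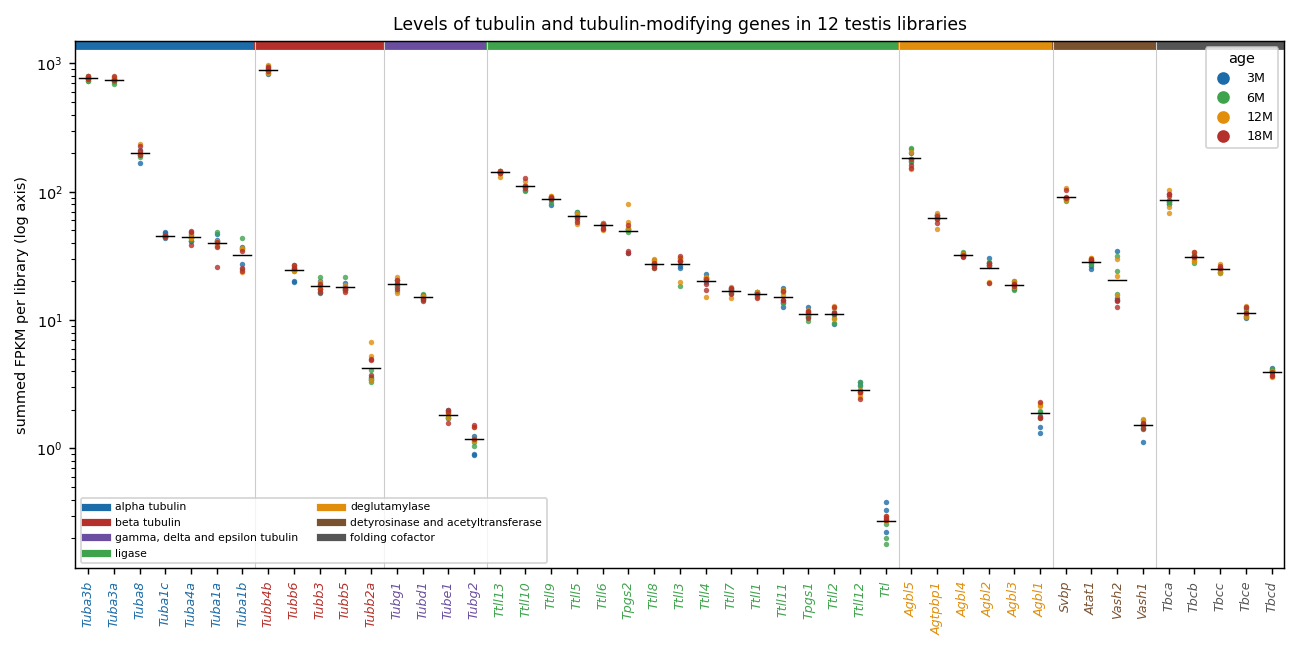
Summed FPKM per gene (log axis) in each of the 12 libraries, with points coloured by age, black lines at the mean and genes grouped by role. Tubb4b, Tuba3b and Tuba3a stand above all other members, and the points of most genes lie close together at all 4 ages. Tubb1, Tubb2a-ps2, Tubb2b and Tubb4a, which were at 0 in at least 1 library, are left off.

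A few genes held most of the tubulin RNA of the testis. On the per-length scale of FPKM, 7 members lay above 100, 32 between 10 and 100, 7 between 1 and 10 and 5 under 1. Tubb4b, a beta tubulin, was the highest member with a mean of 893 ± 46.0 (SD, n = 12 libraries), rank 25 of all genes. Tuba3b and Tuba3a, alpha tubulins, followed at 768 ± 23.8 and 749 ± 28.5, ranks 31 and 33. The order of levels within each role was stable only in part: of 44 pairs of neighbours in that order, 19 had ranges over the 12 libraries that overlapped.

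Among the alpha tubulins, FPKM of Tuba3b was 763, 762 and 792 at 3M, 727, 729 and 776 at 6M, 761, 785 and 801 at 12M, and 754, 768 and 794 at 18M. FPKM of Tuba3a was 751, 734 and 775 at 3M, 691, 722 and 747 at 6M, 741, 755 and 789.9 at 12M, and 738, 743 and 794 at 18M. The ages overlapped in both genes, and Tuba3b was higher than Tuba3a in 11 of 12 libraries by a ratio of at most 1.05. Tuba3a and Tuba3b each made up 39.0 to 41.8% of all alpha tubulin FPKM, and Tuba8 8.82 to 11.9%. Tuba1a, Tuba1b, Tuba1c and Tuba4a, alpha tubulins found in many tissues, had means of 40, 32.1, 45.6 and 44.4 FPKM. Tuba8, which by the codons shown above has neither a lysine codon 40 nor a last tyrosine codon, made up 10.2% ± 1.24 (SD, n = 3) at 3M and 11.1% ± 0.534 (SD, n = 3) at 18M, a difference smaller than the SD at 3M.

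Among the beta tubulins, FPKM of Tubb4b was 898, 824 and 947 at 3M, 877, 884 and 846 at 6M, 841, 882 and 977 at 12M, and 936, 879.6 and 926 at 18M. Tubb4b made up 91.7 to 94.3% of beta tubulin FPKM, and its 3M and 18M values overlapped. FPKM of Tubb6 was 25.0, 19.9 and 20.2 at 3M, 24.7, 24.4 and 27.1 at 6M, 24.1, 26.2 and 24.5 at 12M, and 25.3, 25.6 and 26.7 at 18M, the second level among the beta tubulins but 31.2 to 46.8 times lower than Tubb4b within a library. Tubb3 and Tubb5 had means of 18.3 and 18.1 FPKM and could not be ordered, since Tubb3 was higher in 7 of 12 libraries. Tubb2a stood at 4.20 FPKM. Tubb1 and Tubb4a, tubulins of platelets and of neurons, and the pseudogene Tubb2a-ps2 had at most 6, 8 and 3 reads in any library and were not tested. Summed over the family, alpha tubulin FPKM was 1.83 to 2.10 times beta tubulin FPKM in each library.

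Of the other tubulins, Tubg1, the main gamma tubulin, had FPKM of 20.4, 19.6 and 18.1 at 3M, 19.0, 18.4 and 16.7 at 6M, 16.3, 20.6 and 21.6 at 12M, and 19.2, 17.6 and 20.7 at 18M. Its lowest FPKM, in 6M-3, 12M-1 and 18M-2, were in libraries where an assembled transcript led in place of the RefSeq one. Counts not scaled by length (CPM) were 38.0, 37.9 and 40.9 in these libraries, inside the range of the others. Tubd1, delta tubulin, had FPKM of 15.2, 15.8 and 15.6 at 3M, 15.2, 16.0 and 14.4 at 6M, 15.3, 15.1 and 14.8 at 12M, and 14.7, 14.6 and 14.1 at 18M. Tube1 (epsilon tubulin) and Tubg2, the other gamma tubulin gene, were lower, at 1.83 and 1.19 FPKM.

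The ligases were led by Ttll13 and Ttll10. Ttll13 is a polyglutamylase, and its FPKM was 143, 141 and 146 at 3M, 146, 145 and 141 at 6M, 143, 146 and 129.9 at 12M, and 145, 139 and 141 at 18M. Ttll10 is a polyglycylase, and its FPKM was 109, 104 and 111 at 3M, 102, 104 and 108 at 6M, 110.0, 121 and 113 at 12M, and 107, 111 and 128 at 18M. Ttll9, Ttll5 and Ttll6, further glutamylases, had means of 88.6, 64.6 and 54.7 FPKM. The glycylases Ttll3 and Ttll8 had 27.5 and 27.5, and Ttll1, the enzyme of the complex that Tpgs1 and Tpgs2 belong to, 16.0. Transcripts assembled from these reads, and not RefSeq ones, held 99.8% of Ttll8 reads, 95.1% of Ttll13 reads and 94.7% of Ttll10 reads. The mean RNA length weighted by reads was 17998 bases for Ttll8 and 4198 for Ttll3. Ttl itself, the tyrosine ligase, was the lowest tested member on this scale: its mean was 0.275 FPKM, from 49 to 106 reads per library.

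The deglutamylases were led by Agbl5 and Agtpbp1. Agbl5, which removes the branch point glutamate, had FPKM of 174, 181 and 202 at 3M, 219.9, 217 and 171 at 6M, 179, 205 and 152 at 12M, and 179, 162 and 152 at 18M. Its high FPKM in 6M-1 and 6M-2 was not seen in counts not scaled by length (CPM), which were 852, 828 and 778 at 6M and 811 to 866 at 3M. In 6M-1 and 6M-2 the assembled transcript MSTRG.15282.10 held 56.8 and 58.9% of Agbl5 reads, beside 0.815 to 1.80% elsewhere. Agtpbp1, which shortens glutamate chains, had FPKM of 63.0, 64.2 and 66.2 at 3M, 66.0, 65.6 and 61.0 at 6M, 62.0, 68.3 and 51.7 at 12M, and 65.1, 61.2 and 57.1 at 18M. Agbl4, Agbl2, Agbl3 and Agbl1 followed at 32.3, 25.6, 18.7 and 1.88. Agbl4 had the smallest coefficient of variation of the members over the 12 libraries, 2.56%.

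Of the genes for detyrosination and acetylation, Svbp had FPKM of 88.6, 88.9 and 88.2 at 3M, 85.3, 88.6 and 89.9 at 6M, 88.8, 86.2 and 107 at 12M, and 90.2, 91.5 and 103 at 18M. The highest values of Svbp were in 12M-3 and 18M-3, the libraries with the most reads on short RNAs, and 94.0% of its reads lay on a RefSeq transcript of 803 bases. Atat1, the acetyltransferase, had FPKM of 25.2, 26.6 and 28.2 at 3M, 27.5, 28.0 and 28.7 at 6M, 30.5, 29.5 and 30.3 at 12M, and 29.3, 29.6 and 30.0 at 18M. Vash2 and Vash1, the detyrosinases, had means of 20.4 and 1.51. Svbp was 2.54 to 8.15 times higher than Vash2 within a library. Among the folding cofactors, FPKM of Tbca was 85.3, 80.7 and 83.9 at 3M, 83.0, 80.2 and 85.9 at 6M, 76.3, 68.2 and 103 at 12M, and 95.4, 92.1 and 96.5 at 18M. FPKM of Tbcb was 30.9, 31.8 and 31.4 at 3M, 28.0, 30.1 and 32.2 at 6M, 28.7, 28.8 and 33.7 at 12M, and 31.2, 33.7 and 31.8 at 18M. Tbcc, Tbce and Tbcd followed at 24.9, 11.5 and 3.95.

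The first question of the design was whether a gene moved steadily from 3M to 18M. With the reads of each gene summed and age in months as a number, 0 of the 48 members tested passed an adjusted p of 0.05 (edgeR quasi-likelihood F-test over all 12 libraries, Benjamini-Hochberg over 18545 genes), while 0.41% of all genes did. DESeq2 and limma also called 0 members. At an unadjusted p of 0.05 there were 8 members, 16.7% of those tested, beside 17.5% of all genes. These were Ttll10, Tubg2, Tubb6, Atat1, Tubb2a and Ttll9 with a positive slope and Ttll12 and Tuba1a with a negative slope. The median slope of the members was 0.0034 log2 units per month and that of all genes was -0.00019. Their median size was 0.0068, beside 0.0082 in all genes.

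The 5 members with the lowest p of the slope are given as normalised counts (CPM), which are scaled between libraries but not by length. CPM of Ttll10 was 427, 408 and 414 at 3M, 439.9, 416 and 416 at 6M, 459.8, 461 and 482 at 12M, and 433, 462 and 479.6 at 18M. All 3 libraries of 18M and of 12M lay above those of 3M, and the slope was 0.011 ± 0.0031 (SE) log2 units per month (unadjusted p = 0.00423, adjusted p = 0.138). Ttll10 was not called in this fit. Without mouse 1 of 18M its adjusted p in edgeR was 0.0474, with a slope of 0.014. Without that library 193 of 18740 genes were called, beside 76 of 18545 with all 12 libraries. With DESeq2 the adjusted p was 0.0553, and over all the alternatives tried it was 0.0474 to 0.995. CPM of Tubg2 was 1.77, 2.50 and 1.83 at 3M, 2.10, 2.31 and 2.20 at 6M, 2.33, 2.41 and 2.97 at 12M, and 2.37, 3.09 and 2.98 at 18M, with 1 mouse of 3M above 1 of 18M, and a slope of 0.031 ± 0.0094 (SE) (unadjusted p = 0.00516, adjusted p = 0.144).

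CPM of Tubb6 was 55.9, 45.8 and 55.6 at 3M, 55.0, 54.5 and 58.8 at 6M, 64.3, 62.6 and 72 at 12M, and 61.6, 64.2 and 61.1 at 18M. The 3M and 18M values did not overlap, and the slope was 0.019 ± 0.0060 (SE) (unadjusted p = 0.00756, adjusted p = 0.162). The direction of Tubb6 was negative, -0.060, when only reads on RefSeq-matched transcripts (class =) were counted. CPM of Atat1 was 62.3, 65.8 and 70.2 at 3M, 68.3, 70.1 and 68.4 at 6M, 75.3, 74.6 and 75.7 at 12M, and 72.1, 73.1 and 73.7 at 18M, all 18M mice above all 3M mice, with a slope of 0.010 ± 0.0035 (SE) (unadjusted p = 0.0102, adjusted p = 0.175). CPM of Ttll12 was 12.1, 13.9 and 13.4 at 3M, 14.1, 11.7 and 12.7 at 6M, 11.4, 12.3 and 10.8 at 12M, and 11.6, 11.8 and 10.4 at 18M, all 18M mice below all 3M mice, with a slope of -0.016 ± 0.0054 (SE) (unadjusted p = 0.0115, adjusted p = 0.180). Tuba1a, chosen after its values were seen, had CPM of 84.2, 74.8 and 72 at 3M, 76.0, 74.7 and 86.0 at 6M, 70.8, 75.3 and 69.7 at 12M, and 73.6, 67.6 and 48 at 18M. Its low value in 18M-3 stood apart, and no other 18M value lay below 67.6.

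**Figure D2:**
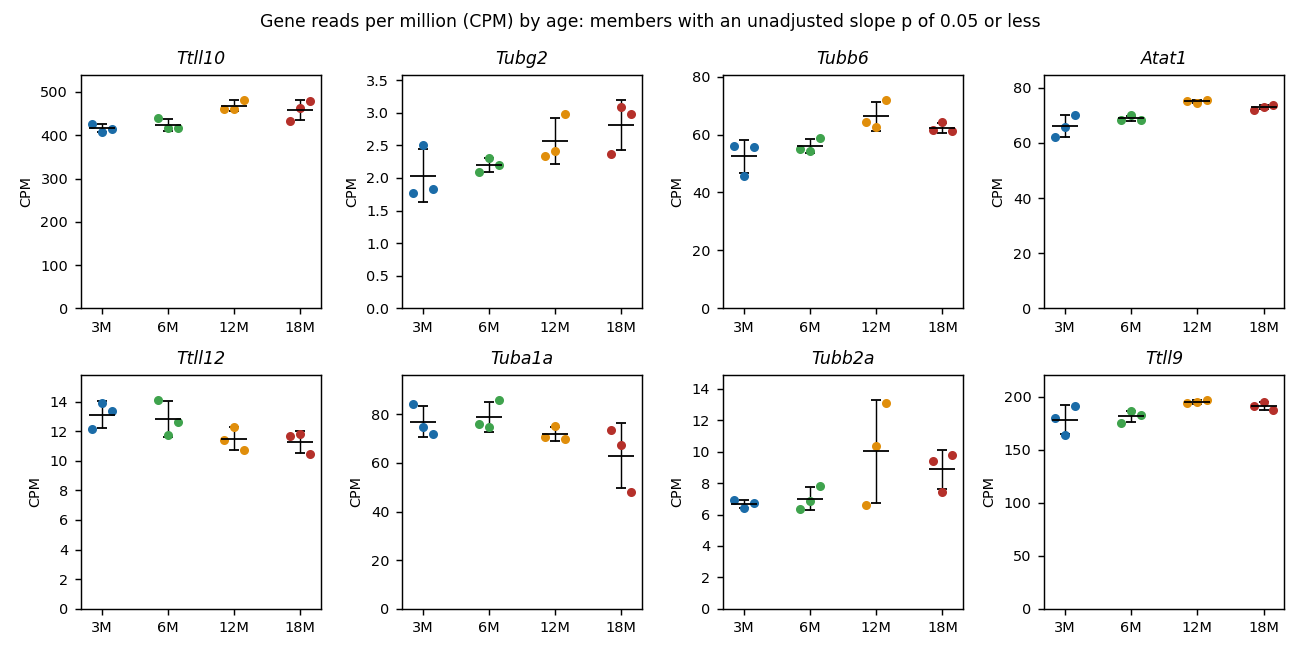
CPM by age for the 8 members with an unadjusted slope p of 0.05 or less, with 1 point per mouse, black lines at the mean and bars of 1 SD (n = 3). Axes start at 0, and the shifts between ages are small beside the levels: Ttll10 ran from 408 to 482 CPM and Atat1 from 62.3 to 75.7.

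The second question was the step from the youngest to the oldest mice. Between 3M and 18M, 0 of 48 members were called by edgeR, beside 0.0662% of 18130 genes, and 0 by DESeq2 and limma. At an unadjusted p of 0.05 there were 8 members, 16.7% of those tested, beside 13.5% of all genes: Tbca, Tubb2a, Tubb6, Ttll10, Tubg2 and Atat1 were higher at 18M and Ttll5 and Ttll12 lower. The estimates were small. The 95% interval of the ratio of 18M to 3M lay within 1.5-fold either way for 39 of the 48 members and within 2-fold for 46. Tubb2b and Vash2 were the 2 whose intervals were wider.

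For the main building blocks the interval was narrow. The ratio of 18M to 3M was 1.01 (95% interval 0.945 to 1.08) for Tuba3b, 1.02 (95% interval 0.943 to 1.10) for Tuba3a and 1.05 (95% interval 0.955 to 1.15) for Tubb4b. It was 1 (95% interval 0.941 to 1.06) for Ttll13, 0.956 (95% interval 0.896 to 1.02) for Agbl5, 0.952 (95% interval 0.875 to 1.03) for Agtpbp1 and 0.938 (95% interval 0.865 to 1.02) for Tubd1. It was 1.07 (95% interval 0.955 to 1.2) for Tubg1, 1.08 (95% interval 0.976 to 1.2) for Svbp and 1.04 (95% interval 0.953 to 1.13) for Tbcb. With 3 mice per age, ratios within these intervals could not be told apart.

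Members whose libraries did not overlap between 3M and 18M numbered 12 of the 48 with 50 or more reads, 25.0%, beside 20.3% of all genes. Atat1, Svbp, Tbca, Ttll10, Tubb2a, Tubb2b and Tubb6 were higher at 18M, and Tbcd, Ttll1, Ttll5, Ttll12 and Tubd1 at 3M. The 7 that were higher at 18M had a median RNA length of 1922 bases and the 5 that were higher at 3M had one of 3770 bases, beside 2074 bases for all members. Of the 7, 4 were under 2000 bases, and of the 5, 1 was. The members showed the length pattern of the libraries in part: members under 2000 bases stood 0.17 log2 units above the longer ones in 12M-3 and 0.12 above them in 18M-3, relative to their means. In 18M-1 and 18M-2 this difference was -0.0072 and 0.033 for the members, beside 0.049 and 0.10 for all genes. When the trend on length was taken out of each library, Tbca had a log2 change of 0.050 in place of 0.20, Svbp of -0.0027 in place of 0.11, and Ttll10 of 0.17 in place of 0.14. After that step 0 members were called in any comparison, and 5 had an unadjusted p of 0.05 or less between 3M and 18M: Ttll10, Tubb2a, Tubb6, Atat1 and Tubd1.

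Members that stood out between 3M and 18M, besides those given already, are set out here and were chosen after their values were seen. CPM of Tbca was 48.4, 45.3 and 47.9 at 3M, 47.3, 45.6 and 47.7 at 6M, 43.6, 39.2 and 59.0 at 12M, and 54.0, 52.9 and 55.6 at 18M, with a log2 change of 0.20 ± 0.052 (SE) and an adjusted p of 0.288. All mice of 18M lay above those of 3M, while 12M held both the lowest and the highest value. CPM of Ttll5, a glutamylase, was 353, 372 and 375 at 3M, 381, 367 and 320.1 at 6M, 362, 376 and 307 at 12M, and 343, 343 and 322 at 18M, with a log2 change of -0.13 ± 0.045 (SE) and an adjusted p of 0.320. All mice of 18M lay below those of 3M. CPM of Tubb2a was 6.91, 6.41 and 6.74 at 3M, 6.37, 6.83 and 7.85 at 6M, 6.61, 10.3 and 13.1 at 12M, and 9.43, 7.45 and 9.77 at 18M. CPM of Ttll9 was 180.0, 164 and 191 at 3M, 175, 186 and 182 at 6M, 194, 195 and 197 at 12M, and 191, 195 and 188 at 18M, and its 3M and 18M values overlapped.

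**Figure D3:**
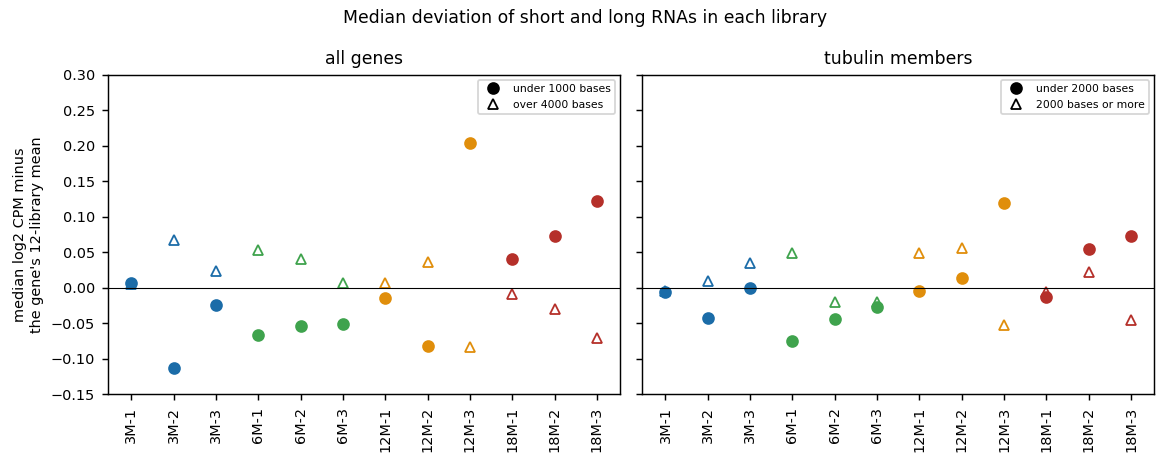
Median log2 CPM of short RNAs (filled circles) and long RNAs (open triangles) in each library, each gene measured from its mean over the 12 libraries. The left panel holds 1341 genes under 1000 bases and 4807 over 4000, the right panel 21 members under 2000 bases and 26 longer ones. Short RNAs are highest in 12M-3 and 18M-3 in both panels.

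**Figure D4:**
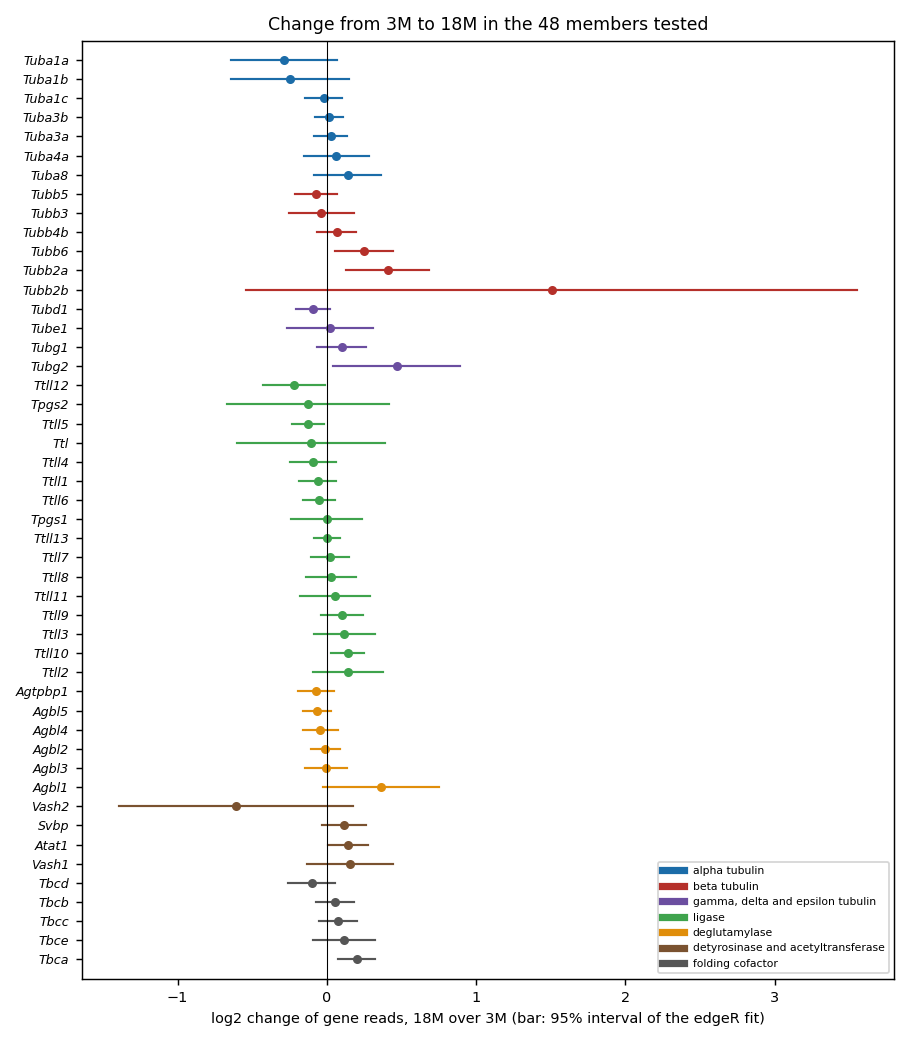
Log2 ratio of 18M to 3M for the 48 members tested, grouped by role, with 95% intervals from the edgeR fit (n = 3 mice per age). Nearly all points lie close to 0, and only Tubb2b and Vash2 have intervals that pass 1 in size.

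Sums of FPKM over each role are given as a description, with no test. The 7 alpha tubulins summed to 1884 ± 16.5 at 3M and 1894 ± 65.1 at 18M (SD, n = 3), and the 9 beta tubulins to 953 ± 59.9 and 981 ± 30.5. The 16 ligases summed to 656 ± 18.7 and 652 ± 11.6, and the 6 deglutamylases to 331 ± 16.1 and 303 ± 19.5. The 5 cofactors summed to 155 ± 3.41 and 168 ± 0.724. Tbca, of 504 bases, made up most of the cofactor sum and Agbl5, of 4818 bases, most of the deglutamylase sum. In read counts, with the trend on length removed, the log2 change was 0.050 in place of 0.20 for Tbca and -0.017 in place of -0.065 for Agbl5. These fits did not use FPKM, and the part of RNA length in the FPKM sums was not tested. By role, log2 changes between 3M and 18M had a median of 0.014 over 7 alpha tubulins, 0.16 over 6 beta tubulins tested, 0.061 over 4 gamma, delta and epsilon tubulins, 0.00020 over 16 ligases, -0.028 over 6 deglutamylases, 0.13 over Vash1, Vash2, Svbp and Atat1, and 0.074 over 5 cofactors. All genes had a median of -0.0019. The deglutamylases were lower at 18M in 5 of 6 cases with changes of -0.072 to -0.0037 and 1, Agbl1, higher at 0.36, and none passed the test. Of all genes, 49.6% were higher at 18M. With the trend on length removed, the change of Agbl3 was 0.0591 in place of -0.0037, while that of Agbl5 kept its sign. Tubb2a, higher at 18M with a log2 change of 0.41 ± 0.12 (SE) and an adjusted p of 0.292, and Tubb2b share reads. CPM of Tubb2b, which was chosen after its values were seen, was 1.09, 2.65 and 0 at 3M, 0, 0.167 and 3.39 at 6M, 0.573, 0 and 1.71 at 12M, and 3.67, 3.75 and 3.20 at 18M, so that 3 libraries were at 0 and all of 18M were above 3.

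The steps between neighbouring ages were tested in turn. From 3M to 6M, 0 of 48 members were called by edgeR (0.0497% of all genes), and 0 had an unadjusted p of 0.05 or less beside 3.96% of all genes. From 6M to 12M, 0 were called (0.0606% of all genes) and 8 had an unadjusted p of 0.05 or less, 16.7% of those tested, beside 8.72% of all genes. All of these 8, Tubb6, Ttll10, Tpgs2, Agbl1, Atat1, Tuba8, Ttll11 and Tuba3a, were higher at 12M, by 0.11 to 0.25 on the log2 scale. With the trend on length removed, Tuba8 and Tuba3a were no longer among them. In that edgeR fit 7 members had such a p, beside 9.18% of all genes: Tubb6, Ttll10, Tpgs2, Ttll11, Ttl, Atat1 and Agbl1. From 12M to 18M, 0 were called (0.0275% of all genes) and 2, Vash2 and Tubb2b, had an unadjusted p of 0.05 or less, 4.17% of those tested, beside 3.52% of all genes. DESeq2 and limma called 0 members in any of these steps.

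Vash2 and Tpgs2, both chosen after their values were seen, each fell into a higher and a lower level among the libraries. CPM of Vash2 was 81.0, 80.2 and 198 at 3M, 187, 91.0 and 122 at 6M, 89.5, 109 and 179 at 12M, and 79.4, 83.2 and 73.0 at 18M. The libraries 3M-3, 6M-1 and 12M-3 lay between 179 and 198, and the other 9 between 73.0 and 122. Of Vash2 reads, 89.9% lay on transcripts assembled from these reads, and MSTRG.1252.4 among them held 76.7%. Whether the levels of Vash2 are those of the gene or of these assembled transcripts was not tested. No library of 18M was at the higher level, and all 3 of 18M lay below those of 12M. CPM of Tpgs2, a subunit of the glutamylase complex, was 149.6, 230.1 and 233 at 3M, 219.9, 227 and 227 at 6M, 244, 238 and 267 at 12M, and 151, 250.4 and 159 at 18M. The libraries 3M-1, 18M-1 and 18M-3 lay between 149.6 and 159, and the other 9 between 219.9 and 267.

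Most members with several transcripts did not keep 1 leading form. The table held 81 member transcripts that matched RefSeq models (class =) and 147 that were assembled from these reads and shared at least 1 junction with a model (class j). Class j transcripts held more than 50% of the reads in 16 genes and more than 90% in 7: Agbl1, Agbl2, Ttll8, Ttll10, Ttll11, Ttll13 and Tuba4a. Of the 29 genes with more than 1 transcript and 5 CPM or more, 13 had the same leading transcript in all 12 libraries and 16 did not. In Ttll10, 6 transcripts led in turn. Leading transcripts of class j began 1409 to 15148 bases upstream of the outermost RefSeq start in 6 genes, Vash2, Ttll10, Agbl3, Agbl5, Tuba4a and Tubb6.

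The 5 genes with the largest difference in the share of a transcript between 3M and 18M were Tubg1, Tuba4a, Ttll4, Tuba1a and Agbl3, and in the first 4 of them 1 or 2 libraries of 18M carried most of the difference. In Tubg1, CPM of the RefSeq transcript NM_134024 was 30.6, 29.5 and 28.7 at 3M, 30.4, 24.9 and 0.422 at 6M, 1.67, 32.6 and 33.7 at 12M, and 28.0, 0.444 and 31.0 at 18M. The assembled transcript MSTRG.3634.1 took its place in 18M-2 at 40.4 CPM and was at or below 0.0896 in the other 11 libraries, and MSTRG.3634.2 took its place in 6M-3 and 12M-1 at 37.6 and 36.2. The gene sum in these 3 libraries was 38.0, 37.9 and 40.9 CPM, inside the range of the others. On chromosome 11, NM_134024 begins at 101120131 and has 11 exons, while MSTRG.3634.1 and MSTRG.3634.2 begin at 101119301 and 101119334 and have 12 exons.

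In Tuba4a, CPM of MSTRG.443.7 was 128, 80.2 and 125 at 3M, 128, 96.2 and 0 at 6M, 146, 111 and 131 at 12M, and 0, 143 and 130.5 at 18M. Where it was at 0, in 6M-3 and 18M-1, MSTRG.443.6 stood at 127 and 106 CPM against 0 to 18.9 elsewhere. In Ttll4, CPM of MSTRG.425.4 was 108, 100.2 and 107 at 3M, 111, 107 and 94.1 at 6M, 114, 116 and 83.9 at 12M, and 5.87, 99.9 and 106 at 18M. It led in 11 libraries, while in 18M-1 MSTRG.425.3, another assembled form, had 89.1. In Tuba1a, the percent share of NM_011653 was 90.3, 90 and 90.7 at 3M, 80.1, 89.9 and 89.7 at 6M, 90.2, 87.7 and 78.1 at 12M, and 80.2, 90.2 and 54.8 at 18M, and the lowest value was that of 18M-3. In Agbl3, the percent share of NM_178630 was 6.21, 19.9 and 29.6 at 3M, 5.85, 36.5 and 8.15 at 6M, 33.7, 38.6 and 37.9 at 12M, and 40.2, 37.8 and 20.9 at 18M. It was lowest in 3M-1, 6M-1 and 6M-3 and led in 6 libraries, with MSTRG.16718.6 leading in the other 6. The gene sums varied less, from 146 to 186 CPM for Tuba4a, 129.97 to 183 for Ttll4 and 101 to 116.9 for Agbl3.

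**Figure D5:**
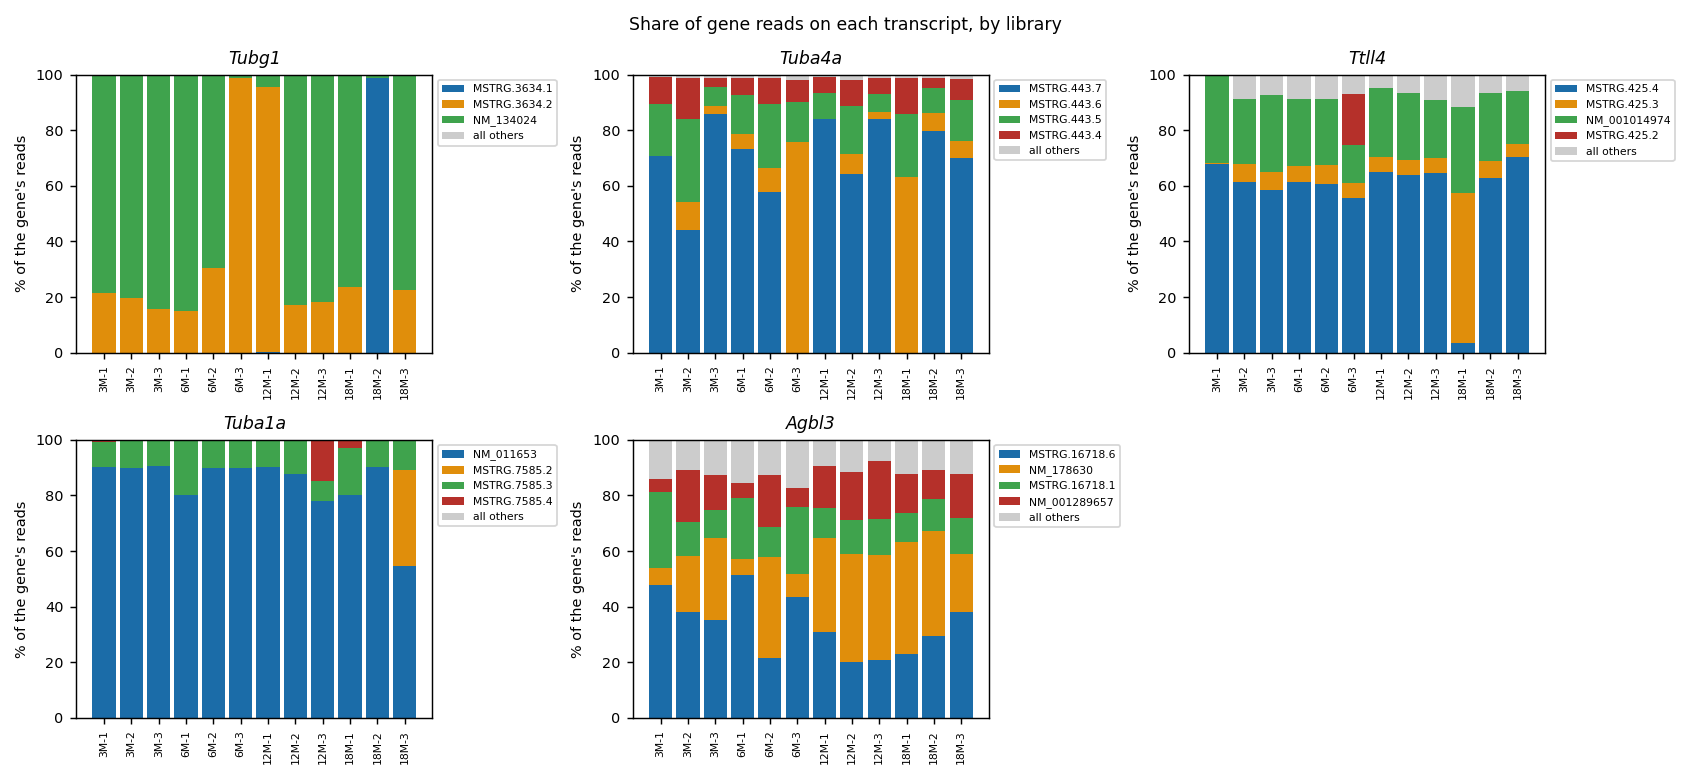
Share of each gene's reads on its 4 transcripts with the highest share in any library, as stacked bars per library, for the 5 genes with the largest difference in mean share between 3M and 18M. The switch is seen in 18M-2, 6M-3 and 12M-1 for Tubg1, in 6M-3 and 18M-1 for Tuba4a and in 18M-1 for Ttll4, and mice of the same age do not share it.

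Tested as transcripts, 0 of 197 passed for the slope on age (edgeR, adjusted p of 0.05 or less; 0.0103% of all 58289 transcripts), and 10 had an unadjusted p of 0.05 or less, beside 7.15% of all. Between 3M and 18M, 0 of 191 passed an adjusted p of 0.05 with a log2 change of 1 or more (0.108% of all 54472), and 1, MSTRG.9950.8 of Tubb6, passed at the unadjusted p, beside 2.57% of all. DESeq2 called 0 for the slope, beside 1075 of all 62391 transcripts. Between 3M and 18M it called this 1 transcript, beside 1259 of all 62110. CPM of MSTRG.9950.8 was 10.3, 0.368 and 13.8 at 3M, 0, 5.77 and 0.312 at 6M, 0.0358, 0 and 5.11 at 12M, and 0.782, 0.161 and 0.0889 at 18M, so that 1 of the 3 mice of 3M had 0.368 and lay within the range of 18M. Switches of 1 or 2 libraries that lay outside the rule for naming included that of Agbl5, where MSTRG.15282.10 had 484 and 488 CPM in 6M-1 and 6M-2 and 6.17 to 15.9 elsewhere. In Agtpbp1, MSTRG.5366.4 had 117.3 in 18M-1 and 6.43 to 13.2 elsewhere, and in Tpgs2, MSTRG.9620.2 had 159.5 in 12M-1 and at most 0.392 elsewhere. In Ttll10, MSTRG.15016.1 and MSTRG.15016.13 held 37.6 and 31.5% of the reads in 3M-3 and 40.1 and 37.1% in 18M-3, and 0 elsewhere. This list is not complete.

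The leading transcripts of some members lie over other annotated genes, and the libraries carried no strand. Atat1 shares 684 bases, 27.6% of its leading transcript, with Gm16279 on the other strand, Tuba8 313 bases with Gm15856, and Tuba3a 114 bases with 4930417O13Rik. Reads of these stretches could not be assigned to a strand. Tuba1a, Tuba1b and the annotated gene Gm49450 share bases on the same strand, and an assembled Tuba1a transcript, MSTRG.7585.3, runs from Tuba1b to Tuba1a (chr15:98931431-98953672). The Tuba4a leading transcript shares 859 bases with A630095N17Rik on its own strand.

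Tuba3a and Tuba3b, whose RNA stood at almost the same level in every library, lie apart on chromosome 6, and their start regions are shown for that reason. RefSeq's 300 bases from each start (250 before, 50 after; GRCm38.p6) are given with each CCAAT of the printed strand in capitals: Tuba3a at chr6:125286032-125286331 on the minus strand and Tuba3b at chr6:145615713-145616012 on the plus strand.
Tuba3a: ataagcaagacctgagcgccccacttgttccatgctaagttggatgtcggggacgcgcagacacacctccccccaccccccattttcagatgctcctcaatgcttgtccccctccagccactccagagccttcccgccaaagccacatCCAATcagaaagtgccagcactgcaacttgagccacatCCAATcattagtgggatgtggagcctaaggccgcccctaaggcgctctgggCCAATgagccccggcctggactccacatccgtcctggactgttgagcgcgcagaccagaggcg
Tuba3b: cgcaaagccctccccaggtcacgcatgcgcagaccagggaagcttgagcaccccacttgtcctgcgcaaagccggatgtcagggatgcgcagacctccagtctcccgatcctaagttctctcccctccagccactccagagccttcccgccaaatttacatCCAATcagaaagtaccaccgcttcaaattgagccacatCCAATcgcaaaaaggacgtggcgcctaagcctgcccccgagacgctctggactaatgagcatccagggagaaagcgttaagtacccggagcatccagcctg
Aligned end to end they were identical in 60.9% of 335 columns. RefSeq start regions were found for 44 of the 51 members. CCAAT, searched on both strands, was in 22 of the 44, beside 37.4% of 32851 start regions of the same length, GGGCGG in 61.4% beside 35.7%, TATAAA in 6.82% beside 13.6% and TGACGTCA in 4.55% beside 1.79%. TATAAA was in those of Ttll6, Tubb2a and Tubb4b. Such matches are a description of these windows and not of binding.

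Other genes of the microtubule pathway were taken from a list of 69: tubulin chaperonin and prefoldin subunits, the gamma-tubulin ring, severing enzymes, deacetylases, microtubule-binding proteins and partners of the glutamylase complex. Of the 67 tested for the slope, 0 were called (edgeR), and 7 had a positive and 6 a negative slope at an unadjusted p of 0.05 (19.4%, beside 17.5% of all genes). Between 3M and 18M, 0 of 66 were called, beside 0.0662% of all genes, with 2 positive and 5 negative at the unadjusted p (10.6%, beside 13.5% of all genes). Their median log2 change was -0.0038. The summed FPKM of the 18 folding genes was 1919 to 2043 at 3M and 1996 to 2023 at 18M, and the sums overlapped.

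Markers of the cells that carry these RNAs were set beside the members. At an unadjusted p of 0.05 in the edgeR test, 17.5% of all genes had a slope of either sign, and 20.3% of all genes did not overlap between 3M and 18M. Of 5 round spermatid markers, Acrv1, Spaca1, Acr, Tssk1 and Tssk2, 0 were called and 3 had a positive slope at an unadjusted p of 0.05. Between 3M and 18M, 4 of the 5 had a positive log2 change. Their summed FPKM was 731 to 870.2 at 3M and 882 to 904 at 18M, without overlap. Of 5 elongating spermatid markers, 0 were called and 1, Odf1, had a positive slope at an unadjusted p of 0.05, and their sums overlapped. Of 5 spermatocyte markers 0 were called, with sums of 312 to 344 at 3M and 317 to 326 at 18M. Of 7 Leydig markers, 6 had a negative slope at an unadjusted p of 0.05 and 2 were called, and the markers summed to 1017 to 1174 at 3M and 704 to 975 at 18M. The part of these cell types in the values of the members was not tested.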

How the data were processed

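Testis total RNA of 12 mice was depleted of ribosomal RNA and sequenced in pairs with a kit that keeps no strand. The authors aligned reads with HISAT2 to mm10 and assembled and quantified transcripts with StringTie 1.3.3b (version per the file headers). The deposited table gives estimated counts (coverage times length over a read length of 101, rounded up) and FPKM, which the authors scaled by length and mapped fragments, not between libraries. Samples were grouped by the age in their labels.

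Transcripts of class =, c, j or o were summed per gene symbol. Members, lists and tests were chosen with earlier results of these data known. The counts were fitted over all genes or all transcripts in edgeR (version 4.0.16, R 4.3.3) by its quasi-likelihood F-test after TMM scaling and filterByExpr, with Benjamini-Hochberg adjustment, for the slope on age in months over 12 libraries and between ages over the libraries of both. CPM use the same normalization. A gene was called at an adjusted p of 0.05 or less, and a transcript between ages only with a log2 change of 1 or more as well. Alternatives were DESeq2 1.42.0, limma 3.58.1 on log2(FPKM + 1) or log2(FPKM + 0.001) for genes of 1 FPKM or more, other scalings and filters, other class codes, a replicate block and each library left out. Removal of the trend on RNA length and leaving out 12M-3 with 18M-3 were added after seeing the data. The fits were tested on simulated counts. Values in every library are given for members called, the 2 highest by FPKM in each role, the 5 with the lowest slope p, and the 5 with the largest difference in transcript share between 3M and 18M at 5 CPM or more. RNA length was the mean over transcripts weighted by reads. Coding sequences and overlaps came from GENCODE vM21 (GRCm38, the same assembly as mm10), start regions from RefSeq. The last coding bases of Tuba1a and Tuba1b are not reported here. Python 3.11.15 with numpy 2.4.6, pandas 2.3.3, biopython 1.88 and matplotlib 3.10.9 was used elsewhere. Depth of 50924104 to 71803379 reads per library bounds the precision.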

Additional observations from a re-analysis of the deposited data

Results flagged for a closer look

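Reads outside the members' summed classes were present above the limit of 3 reads in all 12 libraries at 4 places. The transcript MSTRG.9017.1, assembled on the strand opposite Atat1 (class x), had a median of 1353.5 reads per library and at least 1138 in each, beside 3100 to 4972 reads counted for Atat1 itself. The opposite-strand transcript MSTRG.11037.1 at Tubb4b had a median of 11 reads, with 6 in the lowest library and 679 in the highest. The transcript MSTRG.4586.1 within an intron of Vash1 had a median of 24 reads (9 to 31), and MSTRG.7405.1 near Ttll1 had a median of 53 (35 to 98).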

How the results depend on the processing

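No member was called under any alternative for gene sums, except Ttll10 for the slope without 18M replicate 1, so that the count ran from 0 to 1 as single libraries were left out. Without 18M replicate 1, 193 of all 18740 genes were called for the slope, beside 76 of 18545 in the main fit. At an unadjusted p of 0.05, the counts were 8 for the slope, 8 from 3M to 18M, 8 from 6M to 12M, 2 from 12M to 18M, 10 for the transcript slope and 1 for transcripts between 3M and 18M. DESeq2 called 1 member transcript between 3M and 18M, beside 1259 of all 62110 transcripts. Over all genes, DESeq2 called 566 for the slope where edgeR called 76. The fit with a replicate block called 0 members in every comparison. The numbers did not pair the mice: deviations of same-numbered libraries had a median correlation of -0.0073 across genes (-0.062 to 0.17), beside a median of -0.00062 for other pairs.

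For the 20 members named by rule, 790 of 840 values under an alternative kept their direction and side of the threshold and 49 changed sign. None of these was called in either direction, and the cause was not tested. Slopes are in log2 units per month and changes are log2 ratios of 18M to 3M. With reads of RefSeq-matched transcripts alone, there was a slope of -0.00521 for Tubb4b, -0.0602 for Tubb6, 0.00391 for Agbl5 and -0.0249 for Tubg1, and an 18M change of -0.0788 for Tubb4b, -0.35 for Tubb6, -0.57 for Tubg1, -0.0487 for Ttll10 and 0.55 for Agbl3. With the trend on length removed, there was a slope of -0.000559 for Tuba3b, 0.000394 for Agbl5, -0.00128 for Tbcb and 0.00123 for Ttll13, and an 18M change of -0.0346 for Tuba3b, -0.0242 for Tuba3a, -0.00265 for Svbp, -0.0240 for Tbcb and 0.0591 for Agbl3. With limma on log2(FPKM + 1), there was an 18M change of -0.00132 for Tuba3b, -0.0176 for Tubg1, -0.0131 for Ttll13 and 0.0362 for Agbl3. With limma on log2(FPKM + 0.001), there was an 18M change of -0.00133 for Tuba3b, -0.0186 for Tubg1, -0.0132 for Ttll13 and 0.0383 for Agbl3. Scaled by library size alone, there was a slope of -0.000691 for Agbl3, and an 18M change of -0.00703 for Ttll13. Without a filter, there was an 18M change of -0.000416 for Ttll13. With all class codes summed, there was an 18M change of -3.09e-05 for Ttll13. Without 12M-3 and 18M-3, there was a slope of 0.000370 for Ttll13. With each library left out in turn, the slope was -0.00116 to 0.000434 for Ttll13, 0.00980 to 0.0139 for Ttll10, -0.000344 to 0.00617 for Tuba4a and -0.00227 to 0.00178 for Agbl3, and the change was -0.0111 to 0.0400 for Tuba3b, -0.0133 to 0.0541 for Tuba3a, -0.0144 to 0.0178 for Ttll13, -0.0343 to 0.12 for Tuba4a and -0.0536 to 0.0390 for Agbl3. With 3 mice per age and 1 strain, ratios within the intervals given could not be told apart. Reads shared by near-identical tubulins, unstranded reads and assembled transcripts that switch between libraries limit the values of single genes and transcripts.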
